A study of Mus musculus with 102 samples.

Results

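Poised enhancers are regulatory regions that carry histone H3 monomethylated at lysine 4 (H3K4me1) without the acetylation of lysine 27 (H3K27ac) that marks enhancers in use. H3K4me1 and part of H3K4me2 at enhancers are deposited by the methyltransferases MLL3 and MLL4, whereas H3K4me3 marks promoters and is laid down mainly by other enzymes of the same family. Remodelling complexes, Mediator, which links enhancers to RNA polymerase II, and cohesin, the ring complex that holds chromatin loops, are all found at enhancers.

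The regions described here are the factor-poor end of the poised list: 7252 regions of the authors' 19567 poised enhancers, and of 67697 regions in all. They were chosen by 2 measured properties of mouse embryonic stem (ES) cells. No H3K27ac enrichment was listed at the region, and at most 2 of 17 chromatin proteins were listed there. The listed values name no library. They are read here as values of cells labelled 129/Ola, the only cells with libraries of all 17 proteins. The 17 proteins are BRG1 and BAF155 (BAF remodelling complex), SNF2H, BAZ1A and WSTF (an ISWI ATPase and 2 of its partners), MED1, MED12 and SUR2 (Mediator), SMC3 (cohesin), RUVBL1 and RUVBL2 (AAA+ ATPases shared by several complexes), SSRP1 (the FACT histone chaperone), PHF5A, SRSF1 and SRSF2 (splicing factors), SAP18 (a subunit of deacetylase and splicing-associated complexes) and PHRF1 (a PHD and RING finger protein). Which factors were listed, and how strongly, therefore chose the regions and is given below as description only.

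The series measured chromatin immunoprecipitation with sequencing (ChIP-seq) in 102 libraries. The 129/Ola cells have 35 libraries of the 17 factors (1 for SSRP1, 3 each for BAF155 and SMC3, 2 for each other), 3 of H3K4me1, 2 of H3K4me3, 2 of H3K27ac and 3 of input, with no genotype change given in the labels. R1 ES cells, of strain 129SV and cultured on feeder cells in medium with LIF, were either wild-type or MLL3/4 double catalytic dead, and each has 2 libraries of H3K4me1, H3K4me2 and H3K4me3. The labels do not say how many clones the catalytic-dead line stands for. The deposited tables hold 1 value per factor and region, and 1 fold enrichment per R1 line and peak, so the spread between replicates and the read depth behind a value are unknown. No test between groups was possible. Differences are given by their size and, for the main ones, by 95% intervals and the number of autosomes that share their direction. The intervals cover only counting error (shares) or the spread over peaks (medians), and not the spread between libraries or lines. They treat regions and peaks as independent, and neighbouring regions are not independent.

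Most regions of this class carried a single factor. Exactly 1 factor was listed at 4031 regions (55.6%), exactly 2 at 3195 (44.1%) and none of the 17 at 26 (0.359%), which are in the poised list through a name not used here. Just outside the limit, 2365 poised enhancers without H3K27ac had exactly 3 factors. The median log2 enrichment of a listed factor was 0.81 at regions with 1 factor, 0.84 with 2 and 0.86 with 3. The lowest listed value was 0.585, a 1.5-fold enrichment, so a factor below that level counts as absent. Over all 10421 values listed at the factor-poor regions the median was 0.83 (quartiles 0.72 and 0.98), and 23.2% reached a log2 value of 1. At the 7593 factor-rich poised enhancers, which also lack listed H3K27ac but carry 3 or more factors, the median was 0.93 and 38.6% reached 1.

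SRSF2, an SR protein of the spliceosome, held 1000 of the 4031 single-factor regions (24.8%, Wilson interval 23.5 to 26.2%). SMC3 held 713 (17.7%), and WSTF and SRSF1 held 434 each (10.8%). These 4 factors accounted for 2581 single-factor regions (64.0%). The Mediator subunits MED12, MED1 and SUR2 held 243, 192 and 121 regions alone, the ISWI ATPase SNF2H 242, PHRF1 182, PHF5A 170, the BAF ATPase BRG1 165 and BAZ1A 120. Only 15 regions were held alone by SAP18, RUVBL2, RUVBL1 or SSRP1, and none by BAF155. Those 5 names do not occur in the poised list, so they could seldom stand alone by construction.

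**Figure D1:**
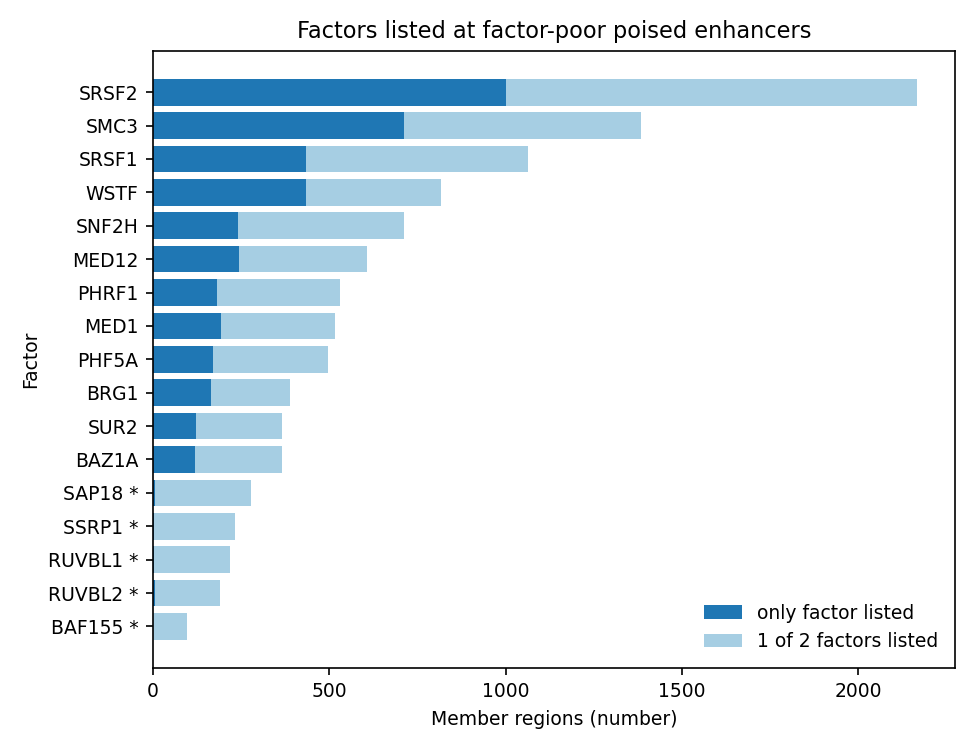
Number of factor-poor poised enhancers (horizontal axis) at which each factor (vertical axis) was the only one listed (dark) or 1 of 2 (light). SRSF2 has the longest bar, 2165 regions, of which 1000 are held by it alone, and an asterisk marks the 5 factors whose names are not in the poised list.

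Factors also differed in how often they occurred at factor-poor as against factor-rich regions. WSTF was listed at 11.3% of the factor-poor and 15.4% of the factor-rich regions, a ratio of 0.731. The ratio was 0.546 for SRSF2, 0.505 for SMC3 and 0.352 for SRSF1, and lay between 0.187 (BAZ1A) and 0.315 (MED12) for the other factors whose names select the poised list. The rule limits the number of factors and so shapes these ratios and their order, which are given as description. WSTF also stood apart in strength: its median log2 enrichment at regions it held alone was 1.20, against 0.74 for SRSF2 and 0.84 for SMC3 and BRG1. A log2 value of 1 was reached by 69.7% of WSTF listings at factor-poor regions and by 20.4% of those of SRSF2. At factor-rich regions these shares were 71.7% and 38.3%, so the strength of WSTF was not particular to factor-poor regions. If only enrichments of at least 1 are counted as a listing, WSTF holds the largest share of single-factor regions, 18.1%, and SRSF2 comes next with 15.98%.

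Pairs were spread thinly: 128 of the 136 possible pairs occurred, and the 10 most frequent covered 923 of the 3195 regions with 2 factors (28.9%). SRSF2 took part in 9 of those 10 pairs and in 36.5% of all pair regions. SMC3 with SRSF2 was the most frequent pair, at 153 regions, which are 22.8% of the pair regions of SMC3 and 13.1% of those of SRSF2. SRSF1 with SRSF2 followed at 132 regions (21.0% and 11.3%) and SNF2H with SRSF2 at 114 (24.3% and 9.79%). SSRP1 had its pairs most often with SRSF2, 76 regions and 33.2% of its pair regions, the highest such share of any factor. The lowest share with SRSF2 was 16.3%, for RUVBL2. SRSF2 was the factor most often listed in pairs and no expected share was computed, so these shares do not show a preference between partners.

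Pairs within one complex or functional group were 11 of the 136 possible (8.09%) and covered 338 regions (10.6%), and 239 of these combine PHF5A, SRSF1 and SRSF2, which are splicing factors rather than one fixed complex. The share of possible pairs takes no account of how often a factor is listed, and SRSF2 and SRSF1 are among the most frequent in pairs (1165 and 630 regions). MED1 with MED12 occurred at 23 regions, MED12 with SUR2 at 19 and MED1 with SUR2 at 10. SNF2H stood with its partner WSTF at 26 regions and with BAZ1A at 15. RUVBL1 and RUVBL2, which form a joint hexamer, shared 1 region, but neither name is in the poised list, so this pair could seldom occur by construction. BRG1 and BAF155, both BAF subunits, shared none of their 222 and 95 pair regions. No expected number was computed for either pair. Of the 8 pairs that never occurred, 7 join 2 names that are not in the poised list and could seldom occur by construction, and BRG1 with BAF155 is the other one.

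**Figure D2:**
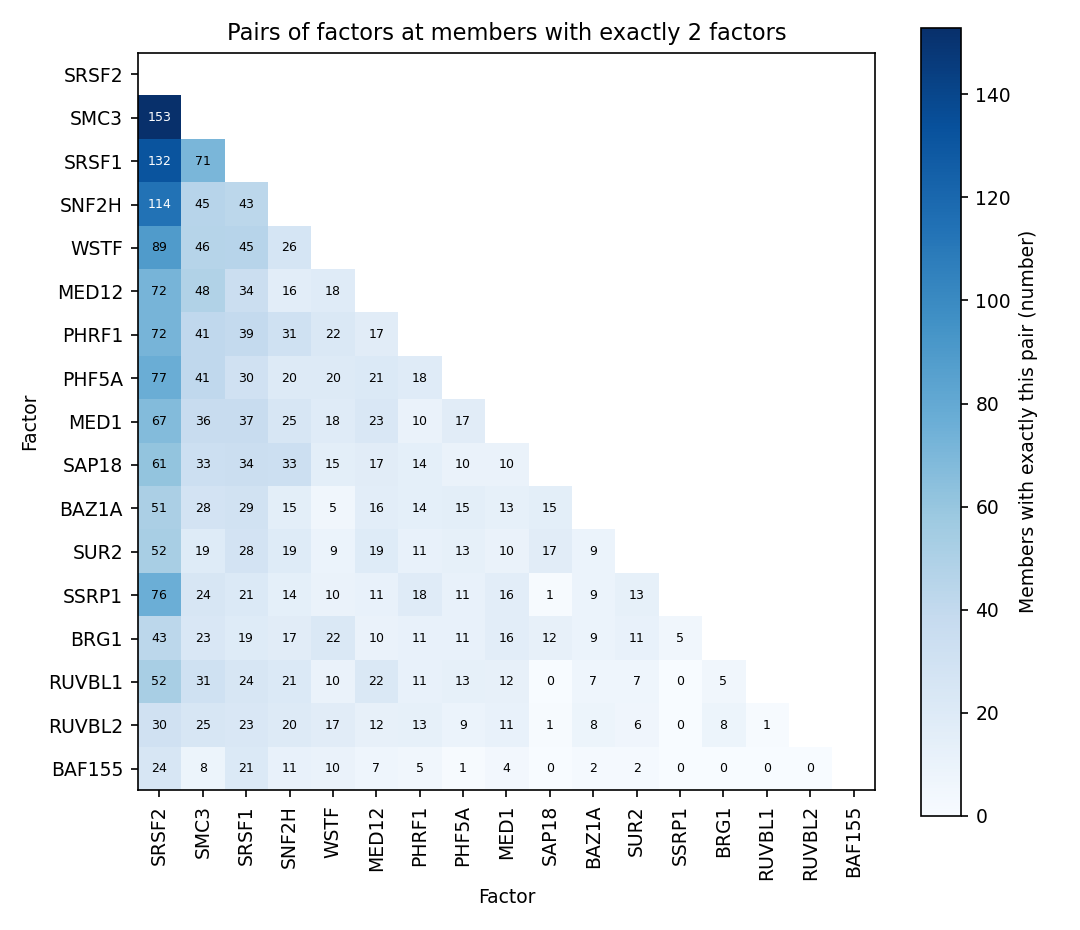
Number of regions with exactly the 2 factors named by row and column, with factors ordered by how many pair regions they have (colour scale and printed numbers are counts of regions). The SRSF2 column holds the highest counts, up to 153 with SMC3, and the 8 empty pairs all join 2 of BAF155, BRG1, RUVBL1, RUVBL2, SSRP1 and SAP18.

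Individual regions show the range (coordinates are mm9, as deposited, counted from 1; no annotation of that build was used, so overlap with genes is not analysed here). The highest value of a factor standing alone was that of WSTF at chr10:25000115-25000364, a 250 bp region with a log2 enrichment of 3.71. In R1 cells it lay on an H3K4me1 peak enriched 3.24-fold in wild-type cells and 1.63 in the catalytic-dead line. The strongest SMC3 region, chr16:36472236-36474210, was 1975 bp wide with a log2 enrichment of 1.74, and its H3K4me1 enrichment was 3.10 in wild-type cells and 4.28 in the catalytic-dead line. That region also lay on R1 peaks of H3K4me2 (9.15 and 11.1) and H3K4me3 (7.22 and 6.39), so in R1 cells it carried the promoter mark too. The strongest SRSF1 region, chr3:34450335-34450866, had a log2 enrichment of 1.44 and H3K4me1 values of 3.54 and 0.880. The strongest regions of SRSF2 (chr5:97610378-97610630, log2 1.73) and MED12 (chr9:70537890-70538123, log2 1.78) lay on no R1 peak of any of the 3 marks.

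The strongest regions of the 3 leading pairs were chr15:38414907-38415258 for SMC3 (log2 1.48) with SRSF2 (1.26), chr1:63179489-63179745 for SRSF1 (1.33) with SRSF2 (1.25), and chr11:97837623-97838866 for SNF2H (1.21) with SRSF2 (1.40). The first had an R1 H3K4me1 enrichment of 3.12 in wild-type cells and 2.27 in the catalytic-dead line, and the last 3.23 and 3.32. The last also lay on an R1 H3K4me2 peak, enriched 3.14 in wild-type cells and 1.80 in the catalytic-dead line. The SRSF1 and SRSF2 region lay on no R1 peak. Of these 8 strongest regions, 5 carried an H3K4me1 peak in R1 cells.

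The width of a region was not used by the rule. Factor-poor regions had a median width of 405 bp (quartiles 264 and 975 bp, range 196 to 9629 bp), against 311 bp for factor-rich regions, 641.5 bp for poised enhancers with listed H3K27ac and 988.5 bp for H3K4me1-only regions outside both enhancer lists without factors or H3K27ac. Width went down with the number of factors: 454 bp with 1 factor, 358 bp with 2 and 336 bp with 3. Regions held by SMC3 alone were the widest of any factor with 50 or more, with a median of 855 bp (quartiles 350 and 1764 bp). Regions held by SRSF2 alone had a median of 535 bp, by SRSF1 510 bp, by WSTF 348 bp and by MED1 343 bp. The widest region, chr15:79357026-79366654 (9629 bp), was held by SMC3 with a log2 enrichment of 1.14. It covered 3 R1 H3K4me1 peaks, with a mean enrichment of 2.87 in wild-type cells and 3.38 in the catalytic-dead line.

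The nearest region with H3K4me3 was 16.8 kb away in the median (16822.5 bp), against 15783 bp for factor-rich regions, 12251.5 bp for poised enhancers with H3K27ac, 17130 bp for H3K4me1-only regions without factors and 9585.5 bp for active enhancers. The nearest active enhancer lay 38735 bp away, against 34713 bp for factor-rich regions, 19909.5 bp for poised enhancers with H3K27ac and 41958.5 bp for the H3K4me1-only regions. The densest group was 9 factor-poor regions at chr1:183877319-183915166, among 13 regions in all, with no active enhancer and no H3K4me3 region among them. SMC3 and SRSF1 were listed at 4 of the 9 each, and SUR2 and PHF5A at 1 each. R1 H3K4me1 peaks lay on 7 of them, with a median enrichment of 2.72 in wild-type cells and 2.35 in the catalytic-dead line.

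The R1 peaks show whether the regions overlap a peak of each mark in R1 cells, and how its fold enrichment differs between the wild-type and catalytic-dead lines. Of the factor-poor regions, 4600 (63.4%, 62.3 to 64.5%) overlapped an R1 H3K4me1 peak, 2381 (32.8%, 31.8 to 33.9%) an H3K4me2 peak and 799 (11.0%, 10.3 to 11.8%) an H3K4me3 peak. The share on an H3K4me1 peak was 55.0% for factor-rich regions, 68.5% for poised enhancers with H3K27ac, 73.5% for the H3K4me1-only regions without factors and 78.8% for active enhancers. Overlap was more frequent at wider regions, and most of the gap to the factor-rich class went with width: at equal width the shares were 63.4% and 61.5%. For H3K4me2 the gap of 5.35 percentage points (32.8% against 27.5%) became -0.61 at equal width. Regions with no R1 peak of the 3 marks numbered 2504 (34.5%) and were narrow, with a median of 311 bp.

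**Figure D3:**
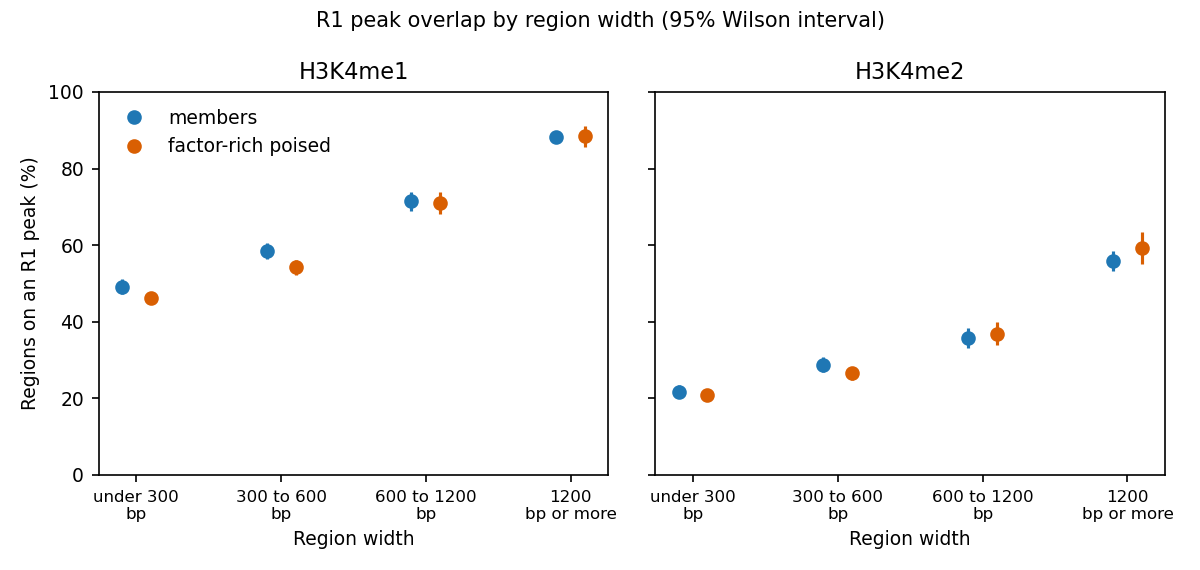
Percentage of regions (vertical axis) that overlap an R1 peak of H3K4me1 (left) or H3K4me2 (right), by region width (horizontal axis), for factor-poor (blue) and factor-rich (orange) poised enhancers, with Wilson 95% intervals. H3K4me1 overlap of factor-poor regions goes from 49.1% under 300 bp to 88.4% at 1200 bp or more, and the classes lie within 5 percentage points of each other in each width range.

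At the 4767 R1 H3K4me1 peaks on factor-poor regions, the median fold enrichment was 3.08 in wild-type cells (quartiles 2.78 and 3.41) and 1.96 in the catalytic-dead line (quartiles 1.18 and 3.07). The median log2 ratio (catalytic-dead over wild-type) was -0.71 (-0.75 to -0.67). The median over all R1 H3K4me1 peaks was -0.21, and relative to it the factor-poor regions stood at -0.50. The authors classed a peak as decreased or increased where the enrichments differ at least 2-fold. By that class 1866 peaks (39.1%) were decreased, against 28.4% of all H3K4me1 peaks, and 179 (3.75%) were increased, against 15.2% of all. Most of these peaks (90.2%) are distal by the authors' class, so distal peaks are the closer background. Of the 4298 distal peaks on factor-poor regions 41.1% were decreased, against 37.7% of all distal peaks, and 2.84% increased, against 5.66%, with a median log2 ratio of -0.77 next to -0.65. Factor-rich regions had a median log2 ratio of -0.58, with 35.6% decreased, and H3K4me1-only regions without factors -0.70, with 39.6% decreased. These ratios rest on R1 values put back in step with their positions, and in the deposited layout the factor-poor median was -0.23; on chromosomes 1 and X, which pair the same either way, it was -0.84. Without the 25% of peaks of lowest mean enrichment it was -0.26. That filter is not independent of the ratio: over the whole table the removed peaks had medians of 2.94 in wild-type and 0.983 in the other line, and the kept peaks 2.94 and 3.41. The difference between factor-poor and factor-rich regions was -0.13 (-0.19 to -0.07), with the factor-poor regions lower on 15 of 19 autosomes. It did not have the same sign at every distance from H3K4me3 regions, as given below.

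At 2440 H3K4me2 peaks on factor-poor regions the median enrichment was 4.15 in wild-type cells and 2.58 in the catalytic-dead line, with a median log2 ratio of -0.68 (-0.74 to -0.64). The median over all H3K4me2 peaks was -0.13. Decreased peaks made up 39.1% (955 peaks), against 23.0% of all, and increased peaks 0.492% (12 peaks), against 1.91% of all. Among distal H3K4me2 peaks the factor-poor regions had 42.9% decreased, against 31.8% of all, and 0.389% increased, against 2.05%. Factor-rich regions had a median of -0.42 with 28.7% decreased, a difference of -0.26 (-0.33 to -0.19), and the factor-poor regions were lower on 19 of 19 autosomes. Poised enhancers with H3K27ac had -0.59, with 31.2% decreased. The ratio was lower than at factor-poor regions in H3K4me1-only regions without factors (-0.88, 46.1% decreased) and in active enhancers (-0.96, 48.6%). A low H3K4me2 ratio was therefore not particular to the factor-poor regions. The H3K4me2 ratio was -0.72 at regions with 1 factor, -0.61 with 2 and -0.50 just outside the limit with 3. For H3K4me1 the same steps were -0.73, -0.68 and -0.58. The step at the limit, from 3 to 2 factors, was -0.11 for H3K4me2 and -0.10 for H3K4me1, each shared by 11 of 19 autosomes. At equal width the difference from factor-rich regions was -0.21 for H3K4me2 and -0.11 for H3K4me1. In the deposited layout these differences turned sign, to 0.0753 for H3K4me2 and 0.0540 for H3K4me1. H3K4me3, at 816 peaks, was 4.15 in wild-type cells and 4.57 in the catalytic-dead line, with a median log2 ratio of 0.02. Of these peaks 6.37% were decreased, against 4.48% of all, and 6.13% increased, against 3.15% of all. Only 24.8% of them are proximal by the authors' class, and of distal H3K4me3 peaks on autosomes 7.199% were decreased. Shares among the distal H3K4me3 peaks on factor-poor regions were not computed. The median ratio differed with distance to the nearest H3K4me3 region. It was -0.08 under 2 kb, -0.16 at 2 to 5 kb, -0.12 at 5 to 10 kb, 0.06 at 10 to 30 kb and 0.33 over 30 kb. Over 30 kb 11.5% of peaks were increased and 4.42% decreased.

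Which marks a region carried in R1 cells went with how much H3K4me1 differed between the lines. At the 2364 factor-poor regions with an H3K4me1 peak only, the median H3K4me1 enrichment was 3.03 in wild-type cells and 1.49 in the catalytic-dead line (log2 ratio -1.05, 52.5% decreased). At the 1463 regions with H3K4me1 and H3K4me2 it was 3.19 and 2.14 (-0.64, 34.3%). At the 770 regions with all 3 marks it was 3.06 and 3.32 (0.09, 7.74%). The share decreased was 28.4% over all R1 H3K4me1 peaks and 37.7% over distal ones. Wild-type levels were alike in these groups, so the values that differ are those of the catalytic-dead line.

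Distance to H3K4me3 gave a similar order. The nearest listed region with H3K4me3 was over 30 kb away at 2440 regions. Their median H3K4me1 was 3.15 in wild-type cells and 1.53 in the catalytic-dead line. There 52.7% of peaks were decreased, against 28.4% of all H3K4me1 peaks and 37.7% of distal ones, and the median log2 ratio was -1.04. It was -0.79 at 10 to 30 kb, -0.50 at 5 to 10 kb, -0.24 at 2 to 5 kb and 0.34 under 2 kb (586 regions, 2.94 and 3.62), where 92 of 511 peaks were increased, a share near the 15.2% of all peaks, and 81 (15.9%) were decreased. The nearest group lay above the farthest on 19 of 19 autosomes and above 0 on 16, and the median was lower at each step outward on 12. Factor-rich regions had the same order, with medians of -0.91 over 30 kb, -0.67, -0.49, -0.35 at 2 to 5 kb and 0.43 under 2 kb. The factor-poor median was higher than the factor-rich one at 2 to 5 kb, close to it at 5 to 10 kb and lower in the other ranges.

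Many peaks near H3K4me3 regions extend over both. Of the 4767 peaks, 910 (19.1%) also overlapped a region of another class, and their median log2 ratio was 0.11. With the peaks that touched no other class the ratios were -0.56 under 2 kb (221 peaks), -0.63, -0.68, -0.85 and -1.09 over 30 kb (1385 peaks). On chromosomes 1 and X, counting all peaks, the medians went from 0.54 to -1.24. Under 2 kb, the 277 peaks that reached onto an H3K4me3 region had a median of 0.70, and the other 234 had -0.53. Of the 221 peaks that touched no other class, 15 were increased (6.79%), against 15.2% of all H3K4me1 peaks and 5.66% of distal ones. Over all factor-poor regions the peaks that touched no other class had a median log2 ratio of -0.88. Of them 45.2% were decreased, against 28.4% of all H3K4me1 peaks and 37.7% of distal ones.

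**Figure D4:**
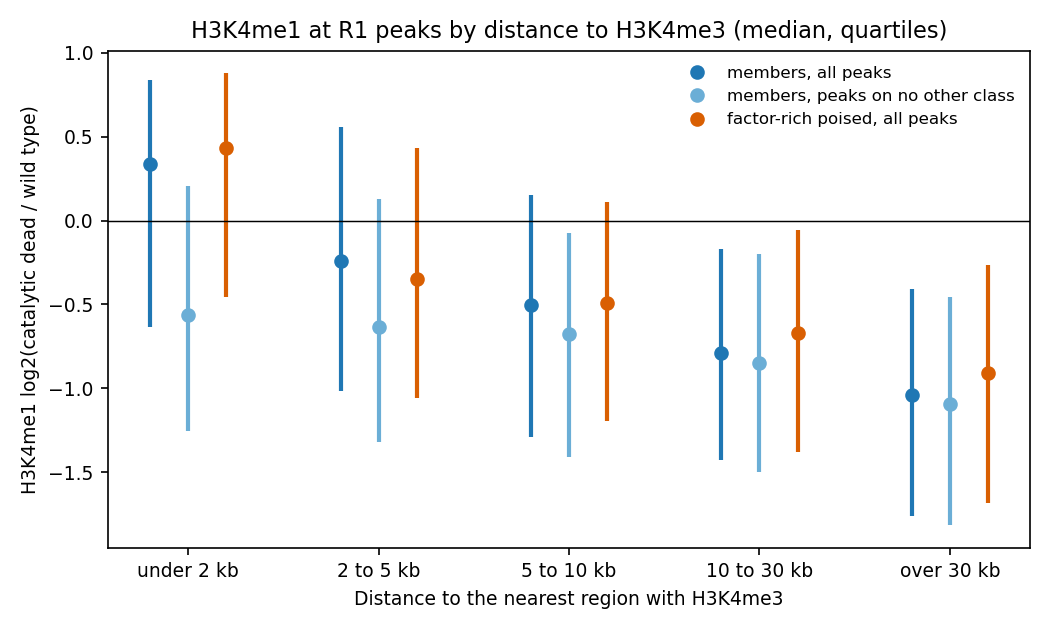
H3K4me1 log2 ratio between the R1 lines, catalytic-dead over wild-type (vertical axis, points are medians over peaks and bars the quartiles) by distance to the nearest region with H3K4me3 (horizontal axis). For factor-poor regions (dark blue) medians go from 0.34 under 2 kb to -1.04 over 30 kb, and for their peaks that touch no other class (light blue) from -0.56 to -1.09. Factor-rich regions are in orange.

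Among single factors, SMC3 went with the smallest H3K4me1 difference; it was singled out after the values were seen. Regions held by SMC3 alone had a median H3K4me1 enrichment of 3.05 in wild-type cells and 2.56 in the catalytic-dead line, a log2 ratio of -0.32 (-0.41 to -0.25, 585 peaks). Regions held by another factor alone had 3.11 and 1.86, a ratio of -0.81. Decreased peaks made up 26.5% at SMC3 regions, and 42.5% at the others. Counting distal peaks only, the shares were 27.6% and 44.6%, against 37.7% of all distal peaks. The SMC3 regions lay higher on 19 of 19 autosomes. The other 11 factors with 50 or more regions had medians from -1.002 for BRG1 to -0.51 for BAZ1A, and their wild-type medians lay between 2.80 and 3.17. BAZ1A rests on 64 peaks, with an interval of -1.0 to -0.12 that takes in most other factors.

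**Figure D5:**
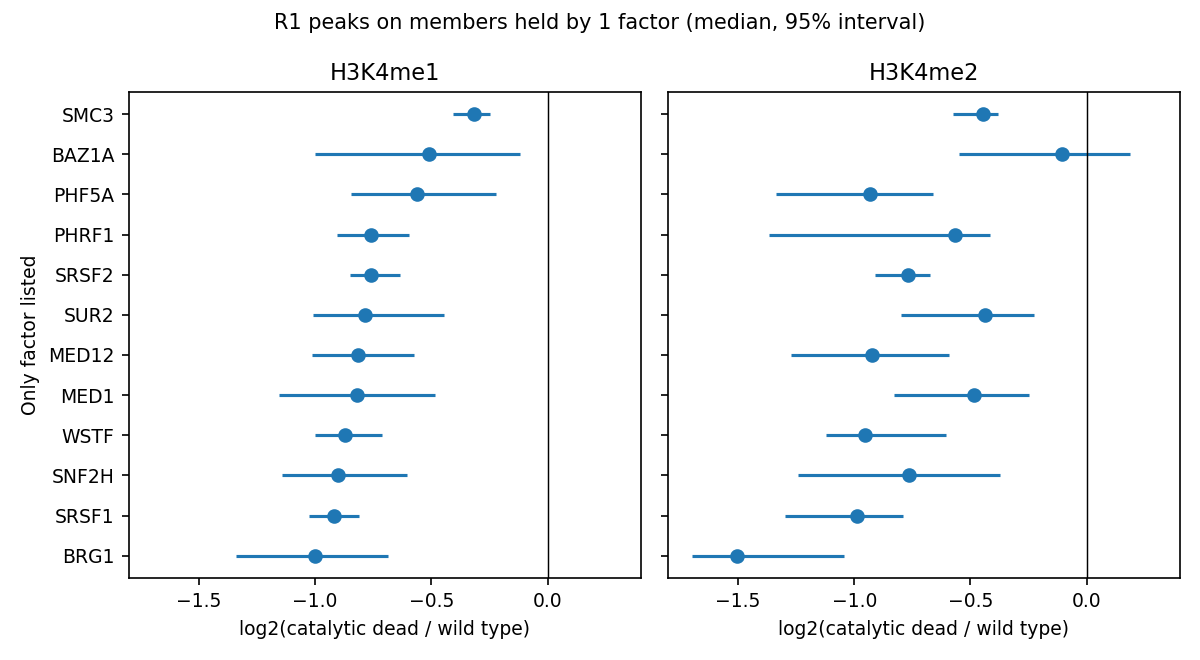
Median log2 ratio between the R1 lines, catalytic-dead over wild-type (horizontal axis) at H3K4me1 (left) and H3K4me2 (right) peaks on regions held by 1 factor (vertical axis), with 95% order-statistic intervals. SMC3 has the highest H3K4me1 median, -0.32, BAZ1A the highest H3K4me2 median, -0.11, and BRG1 the lowest of both marks, -1.002 and -1.503.

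The SMC3 difference was also seen in classes of regions outside the single-factor comparison, though measured with the same R1 values. Among regions with 2 factors, those with SMC3 had a ratio of -0.38 and those without -0.77, and SMC3 lay higher on 17 of 19 autosomes. Among factor-rich regions the values were -0.41 and -0.72, among poised enhancers with H3K27ac -0.47 and -0.72, and among active enhancers -0.55 and -0.82. Over all factor-poor regions the difference was 0.44 (0.36 to 0.52), and SMC3 lay higher on 18 of 19 autosomes. That set includes the single-factor regions in which SMC3 was singled out. Within it the difference was of similar size in each width range: 0.52 under 300 bp, 0.44 at 300 to 600 bp, 0.52 at 600 to 1200 bp and 0.45 at 1200 bp or more. Single-factor SMC3 regions split into low, middle and high enrichment had ratios of -0.29 (-0.42 to -0.15), -0.40 (-0.59 to -0.22) and -0.25 (-0.47 to -0.10). These intervals overlap and the median widths differ (1188.5, 763 and 691.5 bp), so the part of SMC3 strength was not tested.

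The difference was not the same at every distance. SMC3-only regions were about as far from H3K4me3 regions as the other single-factor regions (medians of 16901 and 16776 bp). Over all factor-poor regions the difference was 0.55 over 30 kb, 0.39 at 10 to 30 kb and 0.40 at 5 to 10 kb, 0.62 at 2 to 5 kb and 0.05 under 2 kb. SMC3-only regions overlapped R1 peaks more often than the other single-factor regions, 71.7% against 63.9% for H3K4me1 (their median widths were 855 and 419 bp) and 16.5% against 9.46% for H3K4me3. Within width ranges H3K4me1 overlap of all factor-poor regions with and without SMC3 was 49.4% and 49.1% under 300 bp, 57.2% and 58.8% at 300 to 600 bp, 72.0% and 71.3% at 600 to 1200 bp, and 91.3% and 87.1% above. Within regions with an H3K4me1 peak only, the ratios were -0.77 with SMC3 and -1.11 without, and within those with H3K4me1 and H3K4me2 -0.32 and -0.73. Within regions with all 3 marks both were 0.09. For H3K4me2 itself, SMC3-only regions had a ratio of -0.44 against -0.82 for the rest, higher on 16 of 19 autosomes. SMC3 did not have the highest ratio for this mark. BAZ1A-only regions had -0.11 (23 peaks) and SUR2-only regions -0.438 (33 peaks), next to -0.445 for SMC3. The H3K4me1 difference was 0.0246 in the deposited layout, 0.49 on chromosomes 1 and X (-0.42 with SMC3 and -0.91 without), 0.23 after quantile normalization and 0.19 without the peaks of lowest mean enrichment.

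BRG1, also singled out after the values were seen, had the lowest median, with an interval for H3K4me1 that takes in most other factors. Regions it held alone had H3K4me1 enrichments of 3.16 and 1.59 (log2 ratio -1.002, -1.34 to -0.68, 105 peaks) and H3K4me2 enrichments of 4.03 and 1.47 (-1.503, -1.70 to -1.05, 56 peaks). They lay lower than the other single-factor regions on 15 of 19 autosomes for H3K4me1 and on 16 of 17 with data for H3K4me2. Their median distance to H3K4me3 was 23503 bp, longer than that of SMC3 regions, and its part in the value was not tested. In pairs, BRG1 regions differed from the rest by -0.08 for H3K4me1. BAF155, which occurs here only in pairs, had -1.15 (70 peaks) against -0.66 for the pairs without it.

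The largest single differences at well-enriched peaks were held by several factors. Only peaks whose mean enrichment of both lines lay above the median of all R1 H3K4me1 peaks were considered. This filter depends on the catalytic-dead value and so leaves out some large decreases. One left out is the SRSF1 region chr3:34450335-34450866 given above, with a log2 ratio of -2.01. Among the peaks kept, the 3 largest decreases were at chr9:32694252-32695109 (held by SRSF2, H3K4me1 4.98 in wild-type cells and 0.854 in the catalytic-dead line), chr4:65490900-65491433 (MED1, 4.65 and 1.03) and chr14:79416993-79417547 (BRG1, 5.08 and 1.29). All 3 were over 30 kb from H3K4me3. The 3 largest increases were at chr3:69908374-69908698 (SMC3, 1.44 and 5.39), chr10:7509559-7510924 (SMC3, 1.63 and 5.52) and chr11:59650664-59650927 (WSTF with MED12, 1.49 and 4.66). The last 2 lay within 2 kb of an H3K4me3 region on peaks the authors class as proximal, and the first, 242742 bp from any such region, lay on an R1 H3K4me3 peak.

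The other limit of the rule is the listing of H3K27ac. Poised enhancers with at most 2 factors but with listed H3K27ac numbered 1463, and their H3K27ac log2 values began at 0.60, had a median of 0.86 and all lay below 1. They were wider (median 966 bp), closer to an active enhancer (18639 bp) and more often on an R1 H3K4me1 peak (74.4%) than the regions without H3K27ac. Their H3K4me1 log2 ratio was -0.62 and their H3K4me2 ratio -0.71, next to -0.71 and -0.68 without H3K27ac.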

How the data were processed

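The authors deposited region tables with log2 enrichment values of each factor, read as log2 because the lowest value is that of a 1.50-fold enrichment (0.585), and R1 peak tables with fold enrichment, per the file headers. What either is relative to, and how replicates were pooled, is not given in the sources used here. Per the submitters' processing notes, reads were aligned to mm9 with Bowtie or BWA 0.7.13-r1126, with Picard (2.11.0), MACS2 (2.1.0.20150731) and deepTools (2.5.1, 2.5.3), roles not given.

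A region's factors are its rows in the region table, and 11 names without a labelled library were not used. In the R1 tables values appear out of step with positions, as if positions ran in text order of chromosomes and values in number order. No source states this. Values were put back in step on that inference, which decides most R1 ratios and gave a Spearman correlation of peak width with wild-type H3K4me1 enrichment of 0.261 on chromosomes 2 to 19, against 0.000425 as deposited (0.215 on chromosome 1, which pairs the same either way). Peaks sharing 1 bp with a region were counted once per class. Log2 ratios used no pseudocount, and 2 H3K4me2 peaks listed at 0 were set to 50% of the lowest positive value. Intervals are Wilson (shares) or order-statistic (medians) at 95%. Named regions follow a fixed rule: the highest value for the 5 leading single factors and 3 leading pairs, the 3 largest decreases and increases, the widest, and the densest group within 50 kb. The decreases and increases were taken among peaks with a mean enrichment of both lines above the median of all R1 H3K4me1 peaks. Members and lists were chosen with earlier results of these data known. Python 3 scripts (pandas, scipy) were tested on simulated data. Sequence features and nearby genes are not analysed here.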

Additional observations from a re-analysis of the deposited data

How the results depend on the processing

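No paired analysis was possible because the tables hold 1 value per line or factor, so no replicate could be left out either. The class held 4057 regions with at most 1 factor, and 12746 with factors counted at a log2 value of 1 or more, where the SRSF2 share of single-factor regions was 15.98%. Overlap by 50% of the smaller interval gave 61.0% (H3K4me1) and 28.5% (H3K4me2), and regions of 500 bp or more 78.5% and 44.4%. The median H3K4me1 log2 ratio was -0.23 in the deposited layout, -0.84 on chromosomes 1, X and Y, -0.51 with a pseudocount of 1, -0.50 centred, -0.48 quantile-normalized, -0.26 without the lowest 25% of peaks and -0.88 with peaks on these regions only. For H3K4me2 it was -0.18 in the deposited layout, -0.53 with the pseudocount, -0.55 centred, -0.19 quantile-normalized, -0.25 without the lowest 25% and -0.84 with peaks on these regions only. With distal peaks only, chosen after seeing the data, the ratios were -0.77 (H3K4me1) and -0.81 (H3K4me2). Against factor-rich regions, exactly 2 against 3 factors differed by 4.00 (H3K4me1) and 1.93 (H3K4me2) percentage points of overlap and by -0.11 in H3K4me2 ratio. Equal width gave 1.95 points, and -0.61 points for H3K4me2, a change of sign. In the deposited layout the differences in ratio changed sign, to 0.0540 (H3K4me1) and 0.0753 (H3K4me2).

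The SMC3 difference and the distance order were examined, and all their alternatives chosen, after seeing the data. The SMC3 difference was 0.0246 in the deposited layout, 0.31 with the pseudocount, 0.23 quantile-normalized and 0.19 without the lowest 25%. The difference between under 2 kb and over 30 kb was 0.10 in the deposited layout, 1.77 on chromosomes 1, X and Y, 0.98 with the pseudocount, 0.94 quantile-normalized, 1.03 without the lowest 25% and 0.53 with peaks on these regions only. The ratio under 2 kb was -0.13 in the deposited layout and -0.56 with peaks on these regions only, both a change of sign, and 0.54 on chromosomes 1, X and Y, 0.55 centred and 0.49 without the lowest 25%. If values are out of step as inferred, the deposited layout sets them beside other peaks' positions, apart from chromosomes 1, X and Y. The filter on mean enrichment depends on the catalytic-dead value, and so on the ratio itself. The cause of a change was not tested for any setting. The alternative on sequence features was not run. Read depth is unknown, so it sets no stated limit.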

Other observations

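Few factor-poor regions lie on chromosome X: 19 of 7252 (0.262%), against 0.950% of all regions and 5.38% of H3K4me3-only regions. The other H3K4me1-only classes were as low, with 0.290% of factor-rich poised and 0.184% of active enhancers. In R1 cells 0.913% of distal H3K4me1 peaks were on X. R1 H3K4me1 peaks lay on 8 of the 19 regions, with median enrichments of 3.47 in wild-type cells and 1.43 in the catalytic-dead line, and 6 of the 8 were decreased, against 38.9% of distal H3K4me1 peaks on X. H3K4me2 peaks lay on 7, with 3.83 and 0.926, and all 7 were decreased, whereas 39.8% of distal H3K4me2 peaks on X were. These counts are small, and chromosome X pairs the same in both layouts of the R1 tables.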
